A study of Rattus norvegicus with 12 samples.

Results

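The kynurenine pathway and NAD synthesis were followed through 10 genes in the renal cortex of lean rats, obese rats and obese rats given an SGLT2 inhibitor. The 10 genes (Afmid, Kmo, Kynu, Haao, Acmsd, Aadat, Qprt, Nadsyn1, Nampt and Nnmt), of 13151 in the table, were chosen by their role in the pathway and with their values in these same 12 rats already known. Their differences between groups are therefore given as a description. Where these genes are counted among those past a threshold, the count was made on the values that chose them and supports nothing. Zucker lean (ZL) rats were the controls. Zucker fatty (ZF) rats are obese because they lack a functional leptin receptor. The ZF-SGLT2i group were ZF rats fed canagliflozin, an inhibitor of the glucose transporter SGLT2, at 10 mg/kg/day. Feeding of the drug began at the age of 24 weeks and went on for 8 weeks. There were 4 rats in each group, all male per the study's methods, and the cortex was collected at 32 weeks of age. The receptor defect of ZF rats is carried in every tissue, so the kidney was not altered on its own. The methods describe ZL rats in the time-course experiment only, whose ZL and ZF rats had part of a kidney removed by wedge biopsy before collection. The study names the sequenced ZF rats by its term for the untreated arm of the treatment experiment, for which no biopsy is described, so biopsy may differ between the ZL rats and both ZF groups and cannot be told apart from that comparison. Reads on genes ranged from 8886901 to 12210257 in the ZL group, from 8824980 to 11191377 in the ZF group and from 8914666 to 10293049 in the ZF-SGLT2i group. A value is a normalized read count, a gene's reads times a constant for each rat, and it is not corrected for gene length, so levels were not compared between genes.

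Most tryptophan that is not used for protein is broken down along the kynurenine pathway. Kynurenine is turned step by step into quinolinate, from which NAD can be made anew, or is diverted on the way to kynurenic acid or to full oxidation. Cells also recycle nicotinamide to NAD through a salvage route. In the kidney these enzymes are known mainly from the proximal tubule, the segment that reabsorbs most of the filtrate and depends on mitochondrial oxidation.

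Sequences before a transcript start of 7 of the 10 genes were taken from RefSeq in the rat assembly GRCr8, and those of Acmsd, Nampt and Nnmt were not used here. The deposited values were made on the assembly rn6, so the positions given belong to the reference and not to the reads. Each window held the 250 bases before the transcript start that the RefSeq table uses. That start is the outer edge of the gene in 3 of the 7 genes and lies inside the gene in 4, by 11208 bases in Aadat, 181 in Kmo, 52 in Afmid and 35 in Nadsyn1. The windows were searched on both strands for CAAAGT, letters from the motif of the tubule factor HNF4, and for CACGTG, the E-box bound by clock proteins. These motifs were picked after the values had been seen. CAAAGT was found in 2 of the 7 windows, and it is held by 12.9% of the 33469 windows of the reference. CACGTG was found in 0 of the 7, and it is held by 5.59% of all windows. A match is a stretch of letters and not a binding site. The Aadat window (chr16:34555181-34555430, minus strand) and the Kmo window (chr13:90089271-90089520, plus strand) are shown because they carry the match, here read as its reverse complement and set in capitals. It began 78 bases before the transcript start used in Aadat and 71 bases before that used in Kmo, in both cases within the gene's outer bounds.
Aadat: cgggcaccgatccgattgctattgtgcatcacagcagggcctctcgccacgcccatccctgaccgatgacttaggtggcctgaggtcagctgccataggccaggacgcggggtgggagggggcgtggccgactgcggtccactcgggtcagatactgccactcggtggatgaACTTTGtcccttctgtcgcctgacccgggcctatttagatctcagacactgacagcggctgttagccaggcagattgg
Kmo: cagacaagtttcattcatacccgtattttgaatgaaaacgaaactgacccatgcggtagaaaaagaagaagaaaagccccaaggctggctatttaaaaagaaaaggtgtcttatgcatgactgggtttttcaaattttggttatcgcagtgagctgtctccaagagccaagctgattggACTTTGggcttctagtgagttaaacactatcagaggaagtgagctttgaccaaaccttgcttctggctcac

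Among the enzymes that carry kynurenine toward quinolinate, Afmid, Kmo and Kynu were lower in every ZF rat than in every ZL rat. Afmid (chr10:103544822-103560408 in GRCr8) releases kynurenine from N-formylkynurenine. Its values were 157, 157, 129.6 and 152 in ZL rats 1 to 4, 96.7, 87.4, 99.1 and 89.3 in ZF rats 2 to 5, and 85.3, 75.2, 94.4 and 91.1 in ZF-SGLT2i rats 2, 3, 4 and 6. The ZL rats all lay above the rats of both other groups, which overlapped each other. The mean of the ZF group was 62.4% of the ZL mean and that of the ZF-SGLT2i group 58.0%. On the scale of log2(value + 1), Afmid differed by -0.67 between ZF and ZL (SE 0.081, n = 4 per group).

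Kmo (chr13:90089340-90121108) hydroxylates kynurenine at the outer membrane of mitochondria. In the same order of rats it was 187, 163, 178 and 186 in the ZL group, 120.0, 121, 133 and 106 in the ZF group, and 141, 126, 132 and 101 in the ZF-SGLT2i group. The groups of obese rats were again separate from the ZL rats and mixed with one another. ZF averaged 67.3% and ZF-SGLT2i 70.1% of the ZL mean, and the log2 difference between ZF and ZL was -0.57 (SE 0.097).

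Kynu (chr3:48188286-48338996) cleaves 3-hydroxykynurenine to 3-hydroxyanthranilate. ZL rats had 53.1, 43.2, 54.4 and 51.8, ZF rats 23.0, 26.9, 36.2 and 25.9, and ZF-SGLT2i rats 27.2, 25.1, 26.8 and 24.6. The highest ZF rat, number 4, still lay below the lowest ZL rat. The ZF-SGLT2i rats were close together, with a mean of 25.9 ± 1.25 (SD, n = 4) against 28.0 ± 5.69 in the ZF group. ZF reached 55.3% of the ZL mean, a log2 difference of -0.85 (SE 0.11).

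Haao (chr6:16598325-16617590) opens the ring of 3-hydroxyanthranilate, and the product closes by itself to quinolinate. It was the least even of these enzymes among lean rats, at 239, 149, 159.9 and 302 in the ZL group. ZF rats had 147, 123, 145 and 104, and the highest of them lay just under the lowest ZL rat. With 161, 163, 201 and 145, the ZF-SGLT2i group overlapped both other groups. Its mean of 168 ± 23.7 stood above the ZF mean of 129.97 ± 20.4 and below the ZL mean of 213 ± 71.9. Haao differed by -0.66 on the log2 scale between ZF and ZL and by 0.37 between ZF-SGLT2i and ZF (SE 0.19 for both).

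Acmsd (chr13:41752894-41798427) acts on the product of Haao and leads it away from quinolinate toward oxidation. ZL rats had 172, 146, 147 and 136, ZF rats 79.1, 93.7, 118 and 77.3, and ZF-SGLT2i rats 93.2, 79.9, 99.7 and 79.4. The lean rats were above all obese rats, treated or not. In the ZF group the mean was 61.2% and the ZF-SGLT2i mean 58.6% of the ZL mean, and the log2 difference between ZF and ZL was -0.72 (SE 0.12).

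Aadat (chr16:34520236-34566388) is an aminotransferase that makes kynurenic acid from kynurenine and also acts on the lysine product 2-aminoadipate. It had the widest gap between groups of the 9 genes whose differences were fitted. The lean rats were far apart, at 1383, 515, 743 and 2317. ZF rats had 373, 72.9, 206 and 36.8, and ZF-SGLT2i rats 134, 180.3, 188 and 122. All obese rats lay below all lean rats, and the treated rats fell within the range of the untreated ones. Means were 1239.7 ± 807 (ZL), 172 ± 152 (ZF) and 156 ± 33.2 (ZF-SGLT2i), so ZF stood at 13.9% of ZL. The log2 difference was -3.12 between ZF and ZL, with an SE of 0.59 that reflects the spread within groups.

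Qprt (chr1:191148715-191164006) joins quinolinate to a phosphoribosyl group in the first step that is specific to NAD synthesis from tryptophan. Its values were 78.8, 65.5, 66.9 and 80.7 in ZL rats, 55.6, 52.8, 67.9 and 49.3 in ZF rats and 51.8, 50.6, 49.2 and 39.3 in ZF-SGLT2i rats. ZF rat 4 reached the range of the lean rats, whereas no ZF-SGLT2i rat did. The ZF mean was 77.3% and the ZF-SGLT2i mean 65.4% of the ZL mean. The log2 difference from ZL was -0.37 for ZF and -0.60 for ZF-SGLT2i (SE 0.11 for both).

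Nadsyn1 (chr1:208410914-208439242) adds the amide group in the last step to NAD. ZL rats had 35.6, 29.0, 32.1 and 38.1, ZF rats 21.0, 21.4, 23.5 and 21.3, and ZF-SGLT2i rats 19.7, 18.4, 21.8 and 19.6. The ZL group did not overlap either obese group. ZF averaged 64.7% and ZF-SGLT2i 59.0% of ZL, with log2 differences of -0.60 and -0.73 (SE 0.087).

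The salvage enzyme Nampt (chr6:55152756-55189547), which starts the recycling of nicotinamide, did not share this pattern of values. It was 65.6, 62.5, 60.1 and 65.7 in ZL rats, 65.1, 68.5, 65.6 and 60.9 in ZF rats and 67.4, 72.4, 71.9 and 74.1 in ZF-SGLT2i rats. ZL and ZF overlapped, and every treated rat lay above every lean rat. The ZF mean was 102% and the ZF-SGLT2i mean 113% of the ZL mean. Log2 differences were 0.03 for ZF against ZL, 0.14 for ZF-SGLT2i against ZF and 0.17 for ZF-SGLT2i against ZL (SE 0.056 for each).

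Nnmt (chr8:57820156-57851301), which methylates nicotinamide and so takes it out of the salvage route, was near the limit of detection. Its reads were 1, 1, 0 and 3 in ZL rats, 6, 3, 3 and 1 in ZF rats and 2, 3, 4 and 1 in ZF-SGLT2i rats. The count of 0 in ZL rat 3 allows a value of up to 0.340 at that depth (3 reads, counting error only). Nnmt was left out of the fit as a gene under the filter on low values, and no difference between groups could be read at this depth.

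**Figure D1:**
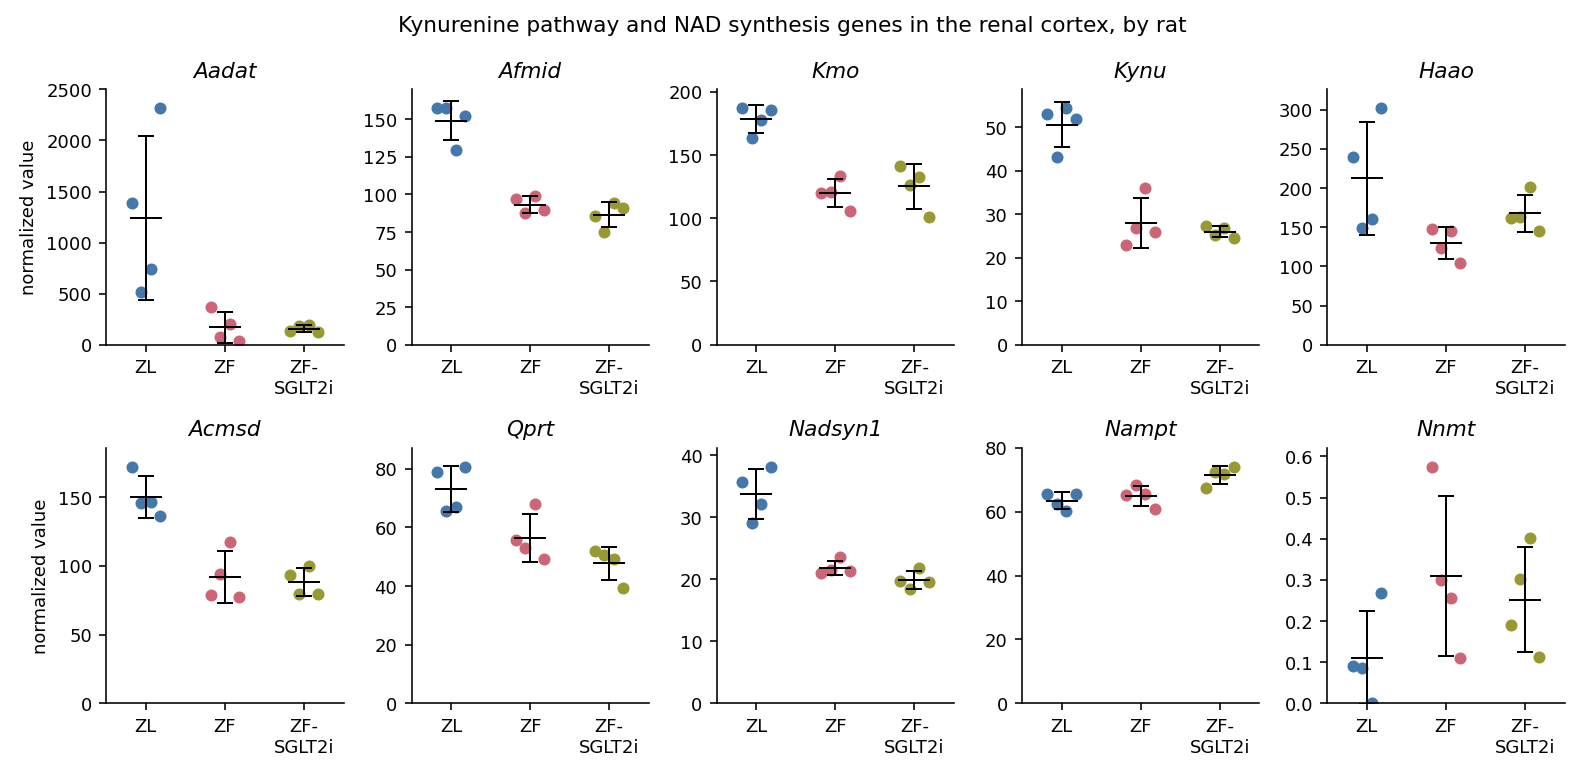
Normalized value (vertical axis, from 0, a separate scale for each gene) of the 10 genes in 4 ZL, 4 ZF and 4 ZF-SGLT2i rats. Points are rats, and bars are the mean and SD. Aadat spans 36.8 to 2317, Nampt is nearly level, and Nnmt stays between 0 and 0.575.

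Of the 9 genes that passed the filter, 8 were called lower in ZF than in ZL by the same limma fit that was run on all 11633 genes, where 10.6% were called lower and 8.19% higher. The share is given beside the count because the genes were chosen knowing these values, and nothing is read from it. Nampt was the gene not called. No rat of the ZF group overlapped the ZL group in 7 of the 9 genes, all lower, and Qprt and Nampt overlapped. Of all genes tested, 10.3% were lower in all ZF rats than in all ZL rats and 8.67% were higher, and nothing is read from the count here either. The median log2 difference of the 9 genes was -0.66, beside -0.0077 over all genes tested. The calls of Haao and Qprt were lost when ZL rat 1 or 4 or ZF rat 3 or 5 was left out, and that of Qprt also without ZF rat 2.

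Canagliflozin was examined with the same ZF rats as before: in ZF-SGLT2i against ZF, 0 of the 9 genes were called lower, where 1.75% of all genes were, and 0 were called higher, where 1.39% were. At an unadjusted p under 0.05 there was 1 such gene, Nampt, which was higher, where 8.52% of all genes were higher and 8.64% lower. All 9 genes overlapped between the groups, where 5.63% of all genes were lower and 5.54% higher in all treated rats than in all untreated ones. The median log2 difference was -0.048, beside 0.0064 over all genes. Set side by side, the value of ZF against ZL and that of ZF-SGLT2i against ZF were -3.12 and 0.35 for Aadat, -0.57 and 0.05 for Kmo, -0.85 and -0.09 for Kynu, -0.66 and 0.37 for Haao, and -0.72 and -0.05 for Acmsd. For Qprt they were -0.37 and -0.23, for Afmid -0.67 and -0.11, and for Nadsyn1 -0.60 and -0.13. The sign for Aadat goes against its means (156 in ZF-SGLT2i and 172 in ZF), because the log scale gives the low ZF rats more weight, and it ranged from -0.21 to 0.89 when 1 rat was left out. An SE of 0.59 for Aadat leaves a wide range of change under treatment that these 4 rats could not resolve.

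Between ZF-SGLT2i and ZL, which share the ZL rats with the first comparison, 7 of 9 genes were called lower and 1, Nampt, higher, where 15.0% and 12.4% of all genes were. Haao was not called (-0.29, SE 0.19). The largest differences after Aadat (-2.77, SE 0.59) were those of Kynu (-0.93), Afmid (-0.78), Acmsd (-0.77) and Nadsyn1 (-0.73). The median log2 difference was -0.73. The call of Nampt was lost without any one of ZL rats 1, 2 or 3 or ZF-SGLT2i rats 3, 4 or 6.

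**Figure D2:**
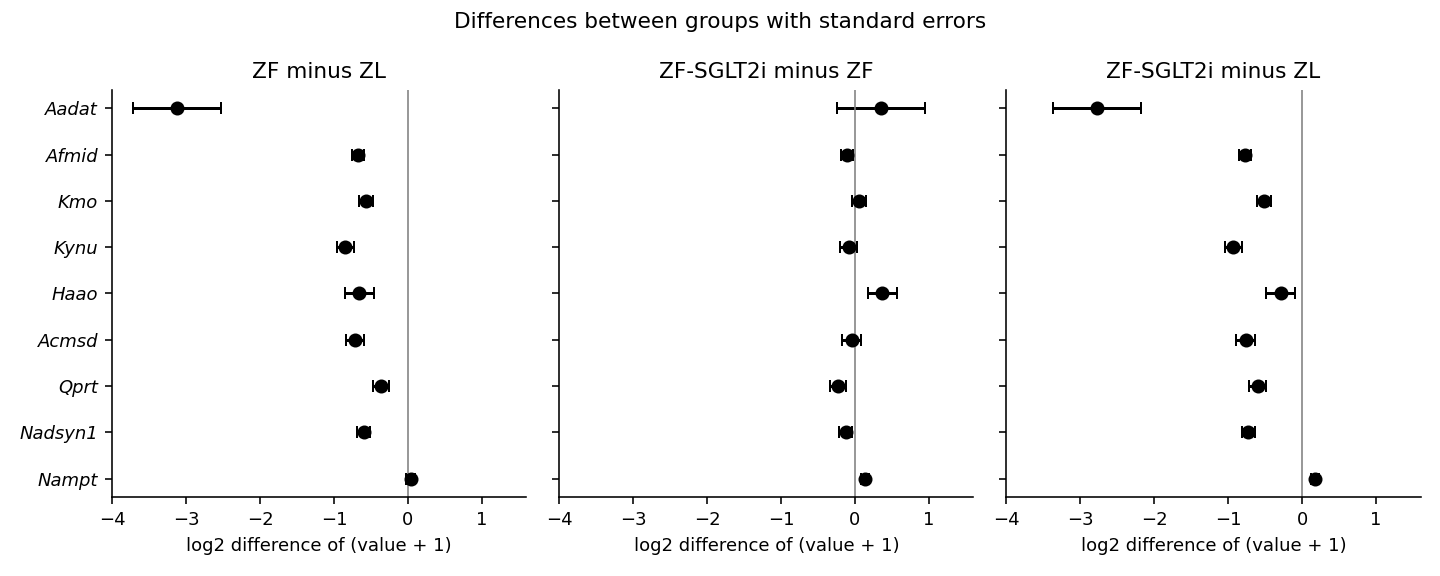
Difference of the group means of log2(value + 1) (horizontal axis) with its standard error for the 9 genes in 3 comparisons, each of 4 rats against 4. Differences from ZL are below 0 for every gene except Nampt, and those between ZF-SGLT2i and ZF lie near 0, with Haao at 0.37 and Aadat at 0.35 the highest.

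The genes ranked some rats of one group alike. Rat 4 was the highest ZF rat in 6 of the 9 genes and the highest ZF-SGLT2i rat in 5. Rat 5 was the lowest ZF rat in 6 and rat 6 the lowest ZF-SGLT2i rat in 6. How many of all genes ranked these rats this way was not counted, so nothing is read from these counts about the 9 genes. The summed proximal tubule markers given below were highest in ZF rat 4 and lowest in ZF rat 5. Of the treated rats they were highest in rat 2 and lowest in rat 6. Within their groups, ZF rat 4 had the smallest share of ribosomal reads (8.82%) and ZF-SGLT2i rat 6 the largest (15.2%). The part of either in these ranks was not tested. Over all 12 rats, the 8 genes other than Nampt had Pearson correlations of 0.578 to 0.957 with each other (median 0.859, 28 pairs), which includes the difference between groups. Nampt's correlations with them ran from -0.559 to 0.158. Aadat and Haao ranked the rats of every group in the same order, rats 4, 1, 3 and 2 in ZL, rats 2, 4, 3 and 5 in ZF, and rats 4, 3, 2 and 6 in ZF-SGLT2i.

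**Figure D3:**
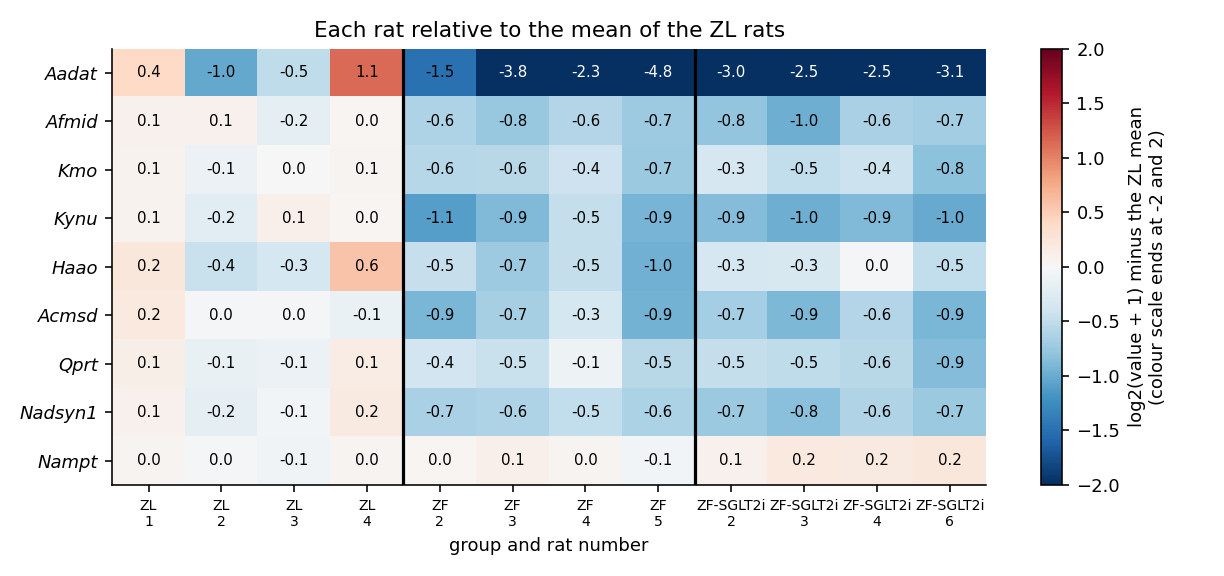
log2(value + 1) of each of 12 rats less the mean of the ZL rats, for the 9 genes, in numbers and in colour (the colour scale ends at -2 and 2). Aadat ranges widely among ZL rats, the other genes from Afmid to Nadsyn1 are mostly below 0 in ZF and ZF-SGLT2i rats, and Nampt stays near 0.

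Of the genes with a mean value of at least 10, those whose profile over the 12 rats was most like that of Aadat were Slc21a4 (r = 0.993), Agt (r = 0.985), which encodes angiotensinogen, and Cyp4a8 (r = 0.984), a cytochrome P450. For Acmsd they were Ndufa10 (r = 0.989) and Ndufb7 (r = 0.985), subunits of complex I of the respiratory chain, and the mitochondrial peroxidase Prdx3 (r = 0.984). Kynu was most like the complex I subunit Ndufb10 (r = 0.976), Aspdh (r = 0.975) and the tubulin Tubb4b (r = 0.974). Afmid was closest to Cbs, which makes cystathionine, Sqle of sterol synthesis and Arl2bp (r = 0.961 for each). These correlations were taken over 8630 other genes in 12 rats that share groups, and they are a description of likeness. Agt had a mean of 37.7 ± 30.1 in lean, 7.07 ± 6.87 in obese and 5.11 ± 1.09 in treated rats.

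The rest of the kynurenine pathway was also lower in ZF rats where it was called. The table has no row for Tdo2, Ido1 or Ido2, the enzymes that open the tryptophan ring, so the entry step was not analysed here. Of the 6 other genes listed, 4 were called lower and 0 higher between ZF and ZL, where 10.6% and 8.19% of all genes were. The 6 had a median log2 difference of -0.33. Between ZF-SGLT2i and ZF 0 were called, where 1.75% of all genes were lower and 1.39% higher. At an unadjusted p under 0.05, 3 were higher there, where 8.52% of all genes were. In treated rats 3 were called lower than in ZL rats, where 15.0% of all genes were. These shares apply to the lists that follow too, all written with earlier results known. Dhtkd1, a subunit of the 2-oxoadipate dehydrogenase, had the largest difference at -0.75 (SE 0.10, adjusted p = 0.00050 by limma with Benjamini-Hochberg adjustment). Aldh8a1, which oxidises the aldehyde that Acmsd forms, was lower by -0.67 (SE 0.13, adjusted p = 0.0036, limma), with means of 419 ± 47.5 (ZL), 264 ± 43.9 (ZF) and 275 ± 39.0 (ZF-SGLT2i). The kynurenine aminotransferases Kyat3, listed as Ccbl2, and Kyat1, listed as Ccbl1, were lower in ZF by -0.47 and -0.19 on the log2 scale (adjusted p = 0.0047 and 0.044, limma). Kyat1 was further from ZL in the treated rats, at -0.31 (adjusted p = 0.0024, limma), and Kyat3, at -0.20, was not called there.

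Among the 9 genes for other uses of tryptophan, all in the table and 6 of them tested, 1 was lower between ZF and ZL, the methyltransferase Inmt (-1.15, adjusted p = 0.043, limma), with 4 lower at an unadjusted p under 0.05 and none higher, and 0 were called between ZF-SGLT2i and ZF (1, Maoa, at an unadjusted p under 0.05). Between ZF-SGLT2i and ZL, Inmt (-1.05) and the tryptophanyl-tRNA synthetase gene Wars (-0.21) were lower.

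In the rest of NAD synthesis, 11 of 12 genes were in the table (Nmrk2 was not) and 10 were tested. Lower in ZF than in ZL were Nmnat3 (-0.38, adjusted p = 0.030, limma), which forms NAD in mitochondria, and the mitochondrial NAD carrier Slc25a51, listed as Mcart1 (-0.23, adjusted p = 0.038). None of the 10 was called between ZF-SGLT2i and ZF by limma, and 3 had an unadjusted p under 0.05 (Nmnat3 lower, Nmrk1 and Pnp higher). Between ZF-SGLT2i and ZL, 5 were lower, among them Nmnat3 at -0.74 and the nucleotidase Nt5e at -0.48, and 3 were higher, among them the riboside kinase Nmrk1 at 0.45 (adjusted p = 0.047, limma) and Nadk2 at 0.37. Means of Nmrk1 were 12.3 ± 3.58 (ZL), 11.2 ± 1.17 (ZF) and 16.7 ± 1.32 (ZF-SGLT2i). Naprt, listed as Naprt1, which starts NAD synthesis from nicotinic acid, differed from ZL by -0.19 in ZF (not called) and by -0.30 in ZF-SGLT2i (called). Nmnat1, the nuclear form, had log2 differences of 0.04, -0.05 and -0.01 in the comparisons of ZF with ZL, ZF-SGLT2i with ZF and ZF-SGLT2i with ZL, and Nadk, which makes NADP, had -0.17, -0.05 and -0.22, the last called. Nmnat2 was under the filter on low values.

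Of the 15 genes for enzymes that consume NAD, 14 were in the table and 13 were tested, and 0 were called between ZF and ZL or between treated and untreated ZF rats by limma, where 2 genes in each comparison had an unadjusted p under 0.05, 1 in each direction. Of all genes tested, 17.9% were lower and 15.2% higher at that threshold in ZF than in ZL. Against ZL, treated rats had higher values of the sirtuin Sirt7 (0.34, adjusted p = 0.011, limma) and the tankyrase Tnks (0.17, adjusted p = 0.046). Sirt1 was not a row of the table, and Sarm1 was under the filter.

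Transport genes for tryptophan and its products (11 listed, all tested) moved both ways between ZF and ZL, with 2 called higher and 2 lower. Cltrn, listed as Tmem27, which in the kidney partners the tryptophan transporter Slc6a19, fell by 0.55 on the log2 scale (adjusted p = 0.040, limma). The amino acid exchanger Slc7a5 rose by 0.86 (adjusted p = 0.0043, limma) and the organic anion transporter Slc22a6, which carries kynurenic acid among many anions, rose by 0.33 (adjusted p = 0.040). Slc22a6 was the transporter called between ZF-SGLT2i and ZF, at -0.59 (SE 0.10, adjusted p = 0.0084, limma), with means of 669.7 ± 97.1 (ZL), 838 ± 61.9 (ZF) and 558 ± 45.5 (ZF-SGLT2i). In ZF-SGLT2i against ZL, 1 was called higher, Slc7a5 (0.95), and 3 lower, Cltrn (-0.80) and Slc36a4 (-0.23) among them.

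For the receptors of kynurenines and the targets of the aryl hydrocarbon receptor, 6 of 9 were in the table (not Gpr35, Cyp1a2 or Tiparp) and 5 were tested. The target Cyp1a1 was under the filter on low values. Its summed reads were 24 in ZL rats (17 of them in 1 rat), 1 in ZF rats and 3 in ZF-SGLT2i rats. None of the 5 was called between ZF and ZL by limma, and 0 had an unadjusted p under 0.05. Cyp1b1, a target of that receptor, was lower in ZF-SGLT2i than in ZF by -0.94 (SE 0.17, adjusted p = 0.0094, limma), with low values of 2.20 ± 0.522 in ZF and 0.661 ± 0.247 in ZF-SGLT2i, and was lower than in ZL by -0.74. At an unadjusted p under 0.05, 3 of the 5 were lower and 1, the target Nqo1 (0.55, not called), was higher in ZF-SGLT2i than in ZF. The receptor gene Ahr was lower in ZF-SGLT2i than in ZL by -0.45 (adjusted p = 0.0067, limma).

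Vitamin B6 supplies the cofactor of Kynu and the aminotransferases. Its kinase Pdxk was higher in ZF-SGLT2i rats than in ZF rats by 0.44 (SE 0.095, adjusted p = 0.024, limma), with 85.0 ± 10.9 against 62.4 ± 6.84. Pdxp and Pdxk were higher in ZF-SGLT2i than in ZL (0.81 and 0.39). Of 5 listed transcription factors and coactivators, Ppara, a regulator of fat oxidation, was higher in ZF than in ZL (0.57, adjusted p = 0.0086, limma) and higher again in ZF-SGLT2i than in ZF (0.64, adjusted p = 0.016). Hnf4a was lower in ZF-SGLT2i than in ZL (-0.25, adjusted p = 0.021, limma) and was not called between ZF and ZL (-0.16). A link between Hnf4a and the motif letters in the Aadat and Kmo windows was not tested. In all, 70 other genes were tested, here called other pathway genes though 11 clock genes and 5 transcription factors and coactivators are among them. In ZF against ZL 23 were called (9 higher and 14 lower), of which clock genes gave 6 and 3. In ZF-SGLT2i against ZF 4 were called (2 and 2), with 0 clock genes. In ZF-SGLT2i against ZL 35 were called (16 and 19), of which clock genes gave 7 and 3. The 70 genes had median log2 differences of -0.087, -0.0047 and -0.090 in that order. Between ZF and ZL the lists had medians of -0.33 (rest of the kynurenine pathway), -0.19 (other tryptophan use), -0.13 (rest of NAD synthesis), 0.0055 (NAD-consuming enzymes), -0.0086 (transport), -0.0060 (receptors and targets), -0.046 (vitamin B6), -0.16 (transcription factors) and 0.87 (clock genes), beside -0.0077 over all genes. Without ZL rat 1 the count of 23 became 15. The count of 4 became 2 without ZF rat 4 and 7 without ZL rat 4.

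**Figure D4:**
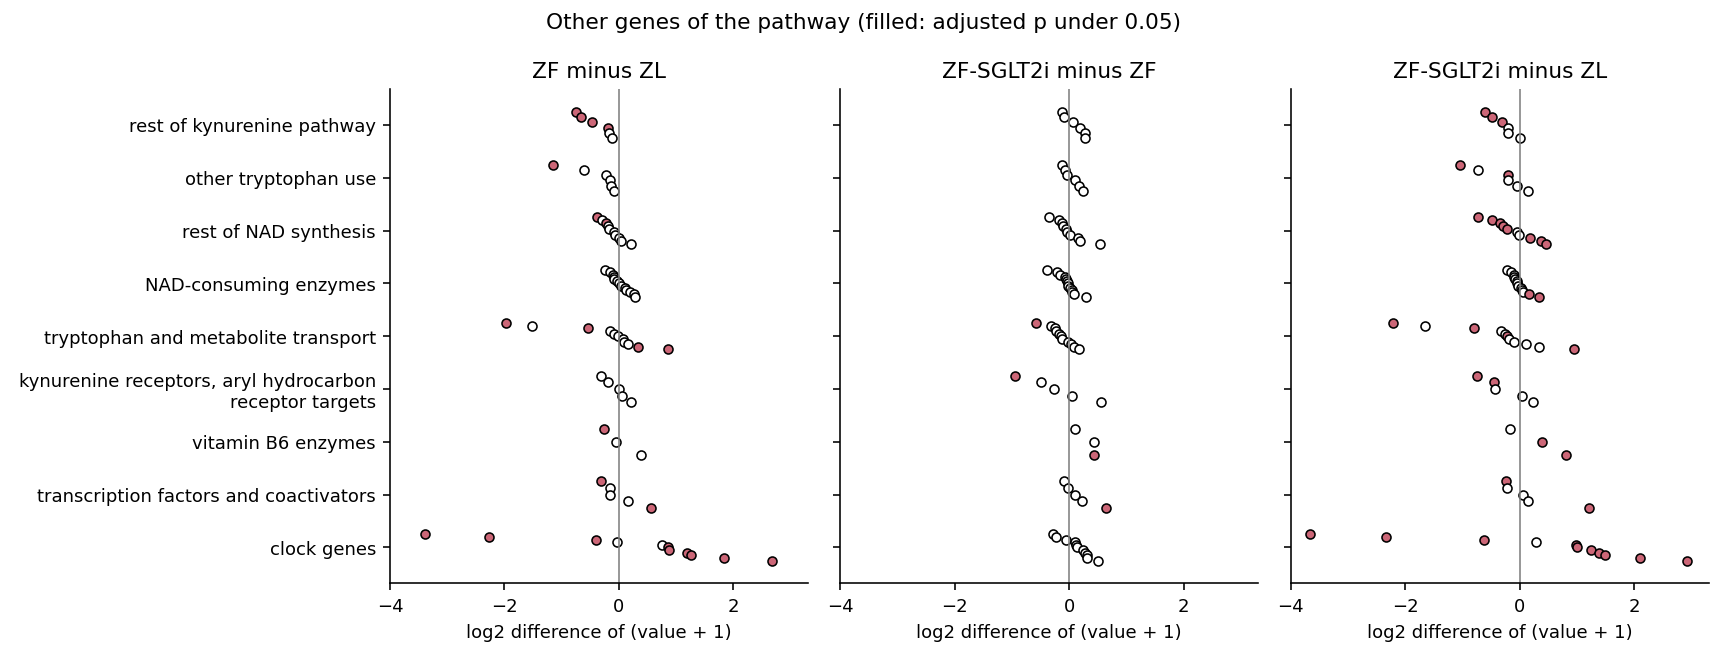
Difference of the group means of log2(value + 1) (horizontal axis) for the 70 other genes tested, in rows by list, for 3 comparisons of 4 rats with 4. Each point is a gene and filled points have an adjusted p under 0.05 by limma. The clock genes spread from -3.38 to 2.68 between ZF and ZL, while the NAD-consuming enzymes stay near 0 there.

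Markers of other cells and states moved with the same groups. The tissue was whole cortex, so fewer cells of a type and less RNA per cell cannot be told apart. The tissue had the defining genes of the proximal tubule, with Slc22a7 the only one of 9 markers at 0 in any rat (ZF rat 5). Lrp2 gave the largest part of their summed value, which is not corrected for length. Of these 9 markers 8 were lower in ZF than in ZL and 2 were called, Slc7a13 (-3.98) and Slc22a7 (-1.69), both of the late proximal tubule. Their summed value was 20176, 19172, 20811 and 19138 in the ZL rats, 14934, 14686, 17915 and 13512 in the ZF rats and 14804, 13154, 13844 and 11309 in the ZF-SGLT2i rats, with no overlap between lean and obese rats. Taken singly, only Lrp2 was without overlap between ZF and ZL (means 7835.3 and 10736.5), and it was not called (-0.47). Each of the other markers overlapped between ZF and ZL, so the separation of the sum is not one of the single markers. The list's median log2 difference was -0.21 between ZF and ZL and -0.39 between ZF-SGLT2i and ZL, where 4 were called lower. Slc7a13 was 838, 139.9, 244 and 1896 in the ZL rats, 148, 21.4, 36.0 and 6.12 in the ZF rats and 14.1, 19.3, 22.3 and 14.4 in the ZF-SGLT2i rats. Slc7a13, Slc22a7 and Inmt, singled out after their values were seen, ranked the ZL rats and the ZF rats in the same order as Aadat and Haao. The part of the proximal tubule's share of the tissue in the differences of the 9 genes was not tested. With each rat's log2 values taken relative to the median of the 9 markers, the differences between ZF and ZL kept their sign in all 9 genes, with -2.85 for Aadat, -0.58 for Kynu, -0.45 for Acmsd, -0.40 for Afmid, -0.39 for Haao, -0.33 for Nadsyn1, -0.30 for Kmo, -0.10 for Qprt and 0.30 for Nampt. By this reference 4 of the 9 were called, where 21.8% of all genes were. Relative to the mean of the markers, which Slc7a13 moves most, 2 of the 9 were called, where 90.1% of all genes were, and 6 genes changed sign, Kmo, Haao, Acmsd, Qprt, Afmid and Nadsyn1.

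**Figure D5:**
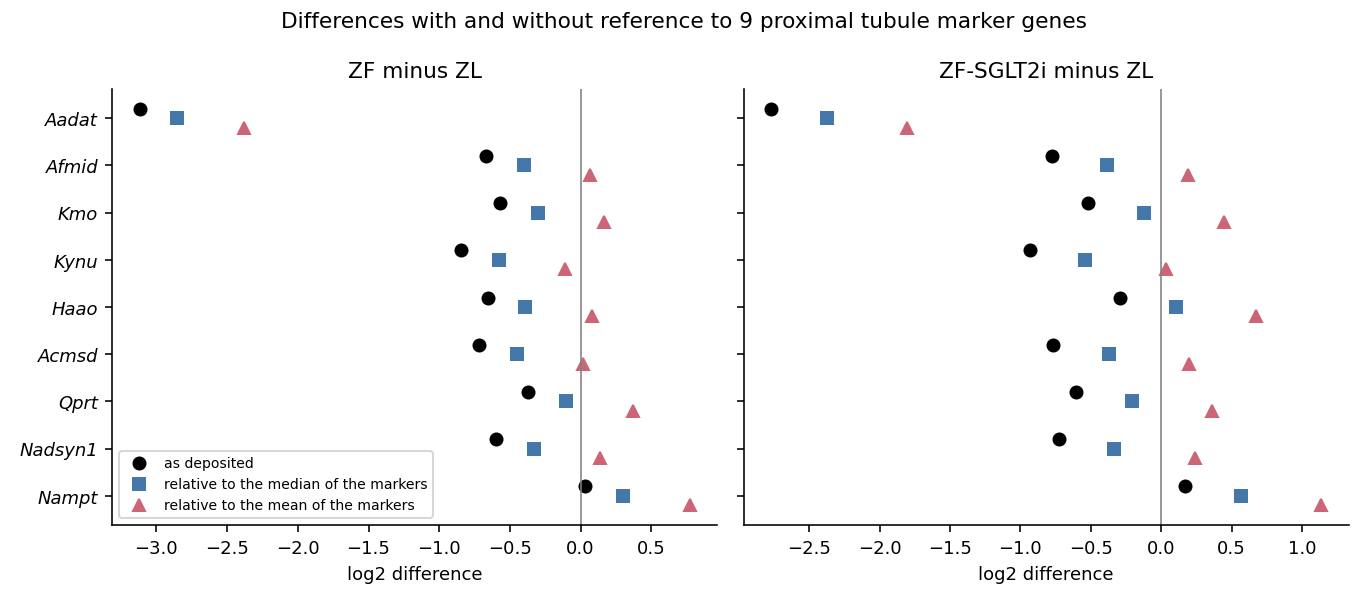
Log2 difference (horizontal axis) of 9 genes between ZF and ZL and between ZF-SGLT2i and ZL as deposited (circles), relative to the median (squares) and relative to the mean (triangles) of 9 proximal tubule markers in each rat. Aadat stays far below 0 in each reading, Nampt moves further above 0, and the other genes move toward or past 0, most with the mean.

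Of 6 markers of injured tubules 4 were called higher in ZF than in ZL (Havcr1 3.01, Spp1 1.98, Clu 1.12, and Lcn2), with a median of 1.31 over the 6 and Spp1 giving the largest part of their summed value. Vcam1 (0.17) and Sox9 (-0.60) were not called. Their summed value was 398 ± 41.0 (ZL), 1151 ± 639 (ZF) and 873 ± 331 (ZF-SGLT2i). Between ZF-SGLT2i and ZF, 1 was called lower, Vcam1 (-0.67). Against ZL, treated rats still had 3 called higher (Havcr1 2.12, Spp1 1.56 and Clu 0.84) and 1 lower, Vcam1 (-0.50), with a median of 0.95 over the 6. Of the markers of thick limb and distal tubule (4), collecting duct (5), podocyte (5), endothelium (5), macrophage (7 tested), lymphocyte (1 tested), fibroblast (6), adipocyte (1 tested) and blood (3 tested), the number called higher between ZF and ZL was 0, 1, 3, 1, 0, 0, 2, 0 and 1 in that order, and 0 were called lower. Between ZF-SGLT2i and ZF, 4 fibroblast markers were lower (Dcn -1.11, Col3a1 -1.03, Col1a2 -0.79 and Pdgfrb -0.50) and 1 collecting duct marker was higher (Aqp2 0.62), with 0 called in the other 7 of these lists. Between ZF-SGLT2i and ZL, 4 collecting duct, 3 podocyte, 1 endothelial, 1 thick limb and distal tubule and 1 blood marker were higher, and 3 fibroblast markers and 1 thick limb and distal tubule marker were lower. Their part in the differences of the 9 genes was not tested.

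Clock genes differed strongly between ZF and ZL, with 6 of 11 called higher and 3 lower. Arntl fell by 3.38 and Npas2 by 2.27 on the log2 scale, and Dbp rose by 2.68 and Per3 by 1.84 (adjusted p = 1.1e-05, 7.7e-05, 1.1e-05 and 2.6e-05, limma). None of the 11 was called between ZF-SGLT2i and ZF by limma (1, Clock, was lower at an unadjusted p under 0.05), and 7 were higher and 3 lower between ZF-SGLT2i and ZL. The hour of tissue collection is not given in the sources used here, and the part of clock phase in the differences of the 9 genes was not tested. The rows Rn28s and Rn45s, of ribosomal RNA left after depletion, held 7.25% to 12.0% of a lean rat's reads. They held 8.82% to 12.0% of an untreated ZF rat's and up to 15.2% of a treated one's. The calls of Haao and Qprt between ZF and ZL were lost when these rows were removed and the rest rescaled. This was 1 of 21 alternatives without a marker reference. Over them the log2 difference stayed from -0.81 to -0.47 for Haao and from -0.46 to -0.25 for Qprt.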

How the data were processed

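RNA of the renal cortex of 12 rats was sequenced from libraries depleted of ribosomal RNA and prepared with strand. Per the labels, in the submitters' processing notes, the authors used Trimmomatic 0.38, Bowtie2, RSEM 1.3.0, edgeR and the build rn6. The roles of these tools, the annotation and any filter are not given in the sources used here. The deposited values are a normalized signal made by the authors, whole multiples of 1 constant per rat in 100% of values (within 1e-06 of a read), and 0 columns belonged to other samples.

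Values were fitted with limma 3.58.1 (R 4.3.3) on log2(value + 1), with the 3 groups in 1 fit and eBayes with its trend option, for genes with values of 1 or more in 4 or more rats. The two-sided p-values of the 11633 genes received a Benjamini-Hochberg adjustment, and calls needed an adjusted p under 0.05. The script was tested on simulated data. The labels say nothing of shared litters. The p-values take the rats as independent and set a group difference against the spread between rats within the 3 groups. A chi-square per gene of 5.07 to 46.0 separated rats of a group, and no rat was a copy of another. Numbers only name rats.

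The 10 genes, the lists of pathway genes and markers and the rules were chosen with earlier results of these data known. Named are the 10 genes, 12 fixed pathway genes and, of each pathway list, up to 4 called genes with the largest difference, and for likeness the 3 genes most correlated with 4 of the 10. Some genes so named, and a motif searched, are not reported here. Alternatives were another pseudocount, other filters, scalings and weights, a replicate block, fits of 2 groups, ribosomal rows removed, reference to proximal tubule markers (added after the data were seen) and each rat left out.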

Additional observations from a re-analysis of the deposited data

Results flagged for a closer look

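In 126 groups of 4 rats, taken from the 10 genes and the other named genes, 4 rats lay far from the other 3 of their group by Dixon's criterion, which chance meets in about 1 in 20 groups, and none of the 4 was in the 10 genes. Inmt was 57.1 in ZF-SGLT2i rat 3, where the others had 36.2 to 38.8. Tnks was 111 in ZL rat 2, where the highest of the others had 101. Slc22a6 was 525 in ZL rat 4, against 707 to 726. Ahr was 46.4 in ZF rat 4, against 39.4 to 40.5.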

How the results depend on the processing

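The 10 genes are read from 4 rats a group, and those of fewest reads (Nnmt, then Nadsyn1 and Kynu) carry the widest counting error. Over the 21 alternatives other than the 2 marker references, the called differences of the 10 genes kept their direction. Aadat ranged from -3.66 to -2.43 between ZF and ZL. Haao lost its call in 7 of them and Qprt in 8 (both between ZF and ZL), and Nampt in 7 (between ZF-SGLT2i and ZL). Over 23 settings, the 2 marker references included, the 27 differences gave 621 values, of which 30 lost the call, 1 gained it, 13 changed sign with a call before or after, and 6 changed sign uncalled by more than the spread between rats. The other 571 kept their call or, where uncalled, stayed uncalled, and some uncalled ones crossed 0. In 63 differences of the other named genes, whose values leave out the 2 marker references, 165 of 1318 values lost the call and 0 reversed.

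With a replicate block (the rat number as a term), the calls over all genes numbered 807, 223 and 1502 in place of 2185, 366 and 3184 for ZF and ZL, ZF-SGLT2i and ZF, and ZF-SGLT2i and ZL, and those of the other pathway genes 11 in place of 23 and 21 in place of 35 in the first and last. The numbers do not pair the rats, since correlations of same-numbered rats were -0.376 to 0.253. Array quality weights gave 689 genes and 7 other pathway genes between ZF-SGLT2i and ZF, in place of 366 and 4. The causes were not tested.

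With 1 rat left out, the genes called ranged from 1389 to 2453 between ZF and ZL (the lowest without ZL rat 1, and 1451 and 1426 without ZF rats 2 and 3), from 176 to 570 between ZF-SGLT2i and ZF (570 without ZF rat 5 and 176 without ZF-SGLT2i rat 3), and from 2241 to 3302 between ZF-SGLT2i and ZL. The 10 genes gave 6 to 8, 0 and 7 to 8 calls, and the other pathway genes 15 to 24, 2 to 7 and 26 to 35. Between ZF-SGLT2i and ZF the genes called also fell to 184, 187 and 207 without ZF rats 3, 4 and 2, and to 210 and 182 without ZF-SGLT2i rats 4 and 6.

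Relative to the mean of the proximal tubule markers, the log2 differences that reversed were, between ZF and ZL, 0.17 for Kmo, 0.078 for Haao, 0.018 for Acmsd, 0.37 for Qprt, 0.065 for Afmid and 0.14 for Nadsyn1, and, between ZF-SGLT2i and ZL, 0.45 for Kmo, 0.031 for Kynu, 0.67 for Haao, 0.20 for Acmsd, 0.36 for Qprt, 0.19 for Afmid and 0.24 for Nadsyn1. Of the 10 genes 2 and 4 were then called, where 90.1% and 95.2% of all genes were, and 4 and 5 relative to the median of the markers, where 21.8% and 57.1% were, in place of 8 and 8. The median of all genes, -0.0077 and -7.0e-05 as reported, is 0.73 and 0.97 by the mean reference, 0.26 and 0.39 by the median reference, and 0.11 and 0.11 with the ribosomal rows removed. The count tests planned in edgeR and DESeq2 were not run. All 12 columns held whole multiples of a constant, but a check of units did not accept 3 of them. In those 3 a read is worth close to 0.1, a step that the check does not take as a read.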
